A study of Ailuropoda melanoleuca with 25 samples.

Results

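Of 22924 gene models of the giant panda (Ailuropoda melanoleuca), 6 were high in only 1 of the 2 libraries of A83-01-treated cells at day 16 of reprogramming. They were chosen on CPM (counts per 1000000, the estimated count of a model divided by the library's column sum). A model was taken when A83-01 day 16 replicate 2 stood at 10 CPM or more and at 8 times or more A83-01 replicate 1 and each of the 2 control day 16 libraries, with A83-01 replicate 1 below 3 times the higher control. The members are evm.model.HIC_ASM_2.519, evm.model.HIC_ASM_11.478, evm.model.HIC_ASM_2.1079, evm.model.HIC_ASM_2.1078, evm.model.HIC_ASM_16.1178 and evm.model.HIC_ASM_15.108. The files give models by scaffold and model number only and do not pair them with gene names, and 0 of the 22924 identifiers occurred in the RefSeq gene table of assembly ASM200744v3. What these models encode, and the cell type markers of any library, were therefore not analysed here.

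The study reprogrammed primary fibroblasts (PF) of the giant panda into induced pluripotent stem cells (GPiPSC) with episomal vectors that do not integrate. RNA was sequenced in 25 libraries of 12 groups, with total estimated counts of 8627983 to 14890260. The fibroblast groups are LB PF and XR PF, and the reprogramming groups are days 8 and 24 of stage I and day 8 of stage II. At day 16 there is an A83-01 group and its control. The established cells are LB GPiPSC, BACL LB GPiPSC and XR GPiPSC, with BACL-CHIR99021 beside a BACL control. All have 2 libraries except LB GPiPSC, which has 3. The labels give primary fibroblast cells as the source of every library. The meaning of LB, XR and BACL is not given there. Neither is the line behind the day 16 and stage libraries or behind BACL-CHIR99021 and its control, nor the concentration of A83-01 or CHIR99021. The title BACL-CHIR99021 also leaves unsaid whether CHIR99021 was added or withdrawn. Whether replicates came from separate cultures is not stated either, and p-values therefore reflect library-to-library spread that may be technical. A second label of the A83-01 libraries spells the compound with other digits, and the title was followed.

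Reprogramming turns a fibroblast, a spindle-shaped connective tissue cell, into a cell that divides without limit and can form the tissues of the body. The change passes through a loss of the mesenchymal state and a gain of epithelial traits. A83-01 is a small molecule that inhibits the kinase activity of type I receptors of the TGF-beta family, a pathway that maintains mesenchymal genes, and it is a component of some reprogramming media. CHIR99021 inhibits glycogen synthase kinase 3, which stabilises beta-catenin and thereby activates Wnt signalling, and it is a common component of stem cell media.

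In the libraries that chose them, the members together took 2619 CPM in A83-01 replicate 2, against 60.1 CPM in A83-01 replicate 1 and 41.0 and 38.4 CPM in control replicates 1 and 2. The highest ratio belonged to HIC_ASM_11.478, which stood at 814 CPM in A83-01 replicate 2 (95% exact binomial interval 798 to 830) against 3.69 CPM in replicate 1 and 1.27 and 1.37 CPM in the controls, 221 times the highest of these. HIC_ASM_2.519 stood at 1351 CPM (interval 1331 to 1371) against 19.9, 8.20 and 5.64 CPM, a ratio of 68.0. For HIC_ASM_16.1178 the values were 47.7 CPM (interval 44.0 to 51.6) against 0.314, 0.423 and 0.171 CPM, but these rest on 616 estimated counts against 4, 5 and 2. The intervals cover counting error only, and the day 16 values are given without a test because they chose the members.

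The other 3 members lay closer to the 8-fold limit. HIC_ASM_2.1079 stood at 249 CPM (interval 240.03 to 257) in A83-01 replicate 2, 21.6 CPM in replicate 1 and 18.8 and 17.4 CPM in the controls, a ratio of 11.5 to the highest of the 3. HIC_ASM_2.1078 stood at 128 CPM (interval 122 to 135) against 12.2, 9.38 and 11.5 CPM, a ratio of 10.5. HIC_ASM_15.108 stood at 29.2 CPM (interval 26.3 to 32.3) against 2.43, 2.96 and 2.22 CPM, a ratio of 9.86. Of these 3, A83-01 replicate 1 was within 1.15 times the higher control for HIC_ASM_2.1079 and 1.05 times for HIC_ASM_2.1078, and below it for HIC_ASM_15.108. For HIC_ASM_2.519 and HIC_ASM_11.478, A83-01 replicate 1 also stood above both controls, at 2.42 and 2.70 times the higher one.

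The rule leaves a gap below its limit. The nearest models that met every other part were evm.model.HIC_ASM_16.977, at 105 CPM in A83-01 replicate 2 and 6.18 times the highest of 17.0, 15.0 and 16.4 CPM in A83-01 replicate 1 and the controls, and evm.model.HIC_ASM_7.1489, at 162 CPM and 5.65 times the highest of 28.7, 19.5 and 19.5 CPM. A limit of 4 in place of 8 added 4 models and a limit of 16 kept 3. Without the controls in the rule, 7 models stood at 8 times replicate 1 or more, so all but 1 of the models with such a gap between the A83-01 replicates were members. With the 2 A83-01 replicates exchanged, the rule found 1 model, and 95 models with 10 CPM or more in replicate 2 stood at 3 times the higher control or more in both A83-01 replicates.

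**Figure D1:**
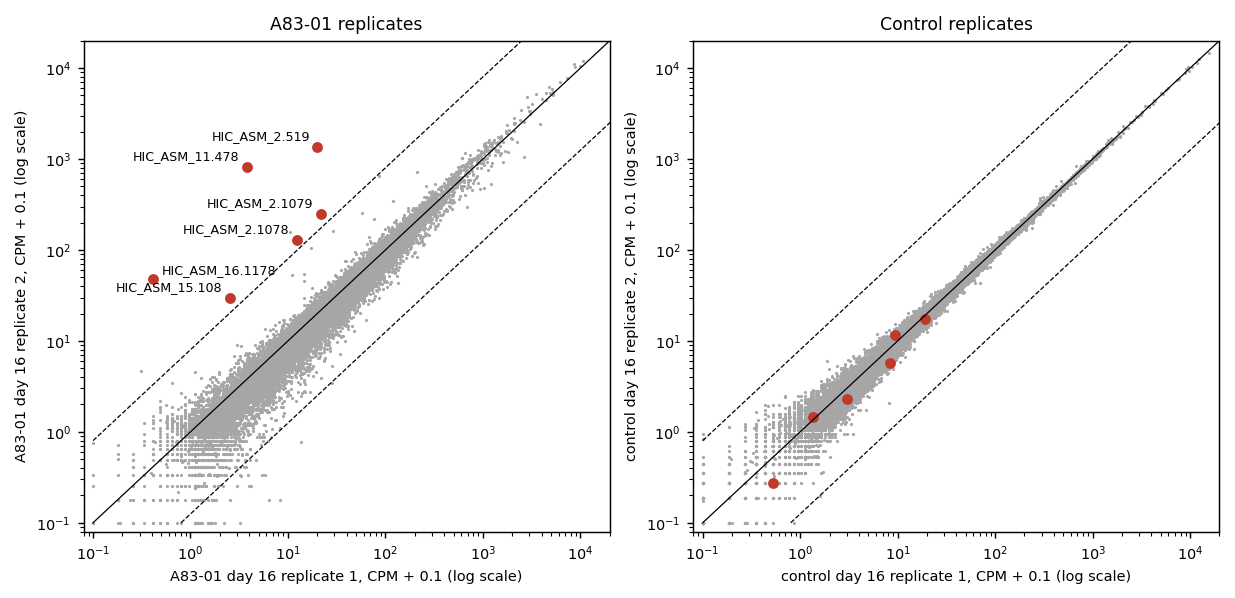
Each grey point is a gene model at 1 CPM or more in a day 16 library, plotted as CPM + 0.1 in replicate 1 (x) and replicate 2 (y) on log axes, with A83-01 on the left and the control on the right. Solid lines mark equal values and dashed lines 8-fold gaps. The 6 members, in red, lie above the upper dashed line among the A83-01 replicates (29.2 to 1351 CPM in replicate 2) and between the dashed lines among the controls.

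The A83-01 libraries had similar depth, with 12734700 estimated counts in replicate 1 and 12922864 in replicate 2. Their log2(CPM + 1) correlated across models at 0.989, against 0.997 for the control pair, and their TMM scaling factors (which correct library size for composition) were 1.08 and 0.939, against 0.912 and 0.906 for the controls. The part of these differences in the result was not tested. With TMM-scaled CPM the rule chose all 6 members and no other model.

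The members came from 4 scaffolds, and 3 of the 6 lie on HIC_ASM_2. Of these, HIC_ASM_2.1078 and HIC_ASM_2.1079 have consecutive model numbers. Per unit length, in TPM (transcripts per 1000000, which divides by effective length), HIC_ASM_2.1079 stood at 0.621 times HIC_ASM_2.1078 in A83-01 replicate 2, 0.567 times in replicate 1, and 0.649 and 0.486 times in the controls. Across all 25 libraries this ratio was lowest in LB PF replicate 1 (0.350) and highest in LB PF replicate 2 (2.15), so the pair did not hold 1 fixed proportion. Each of the pair had 2 other models within 5 numbers that reached 1 CPM at day 16, and none of these was 8-fold apart between the A83-01 replicates. Around the other 4 members, 4 to 7 such neighbours had medians of -0.29 to 0.12 for the log2 ratio of replicate 2 to replicate 1, and again none was 8-fold apart.

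Coding lengths of the members ran from 378 bases in HIC_ASM_2.1078 to 1797 bases in HIC_ASM_15.108, with a median of 1080, against 1353 over the 9245 models at 10 CPM or more in A83-01 replicate 2. On the TPM scale, which allows levels to be compared between models, the members in A83-01 replicate 2 ranked HIC_ASM_2.1078 (545 TPM), HIC_ASM_2.519 (507), HIC_ASM_11.478 (458), HIC_ASM_2.1079 (339), HIC_ASM_16.1178 (29.9) and HIC_ASM_15.108 (8.95). The estimated counts of all 6 were whole to within 0.001 in all 25 libraries. Those of most models were whole too, since only 3.13% to 4.42% of all models per library had estimates that were not whole. The share of all models that were whole in all 25 libraries was not counted. Estimates that are not whole arise when reads are divided between similar models.

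Outside day 16 the members were highest in XR PF. All 6 had their highest group mean there, and in each of the 6 both XR PF libraries stood above both LB PF libraries. In 5 of the 6 both also stood above all 19 other libraries outside day 16, the exception being HIC_ASM_2.519. The share of all models with these patterns was not counted. Medians over the members were 102 and 101 CPM in XR PF and 10.8 and 24.7 CPM in LB PF. Over the 9245 models at 10 CPM or more in A83-01 replicate 2 they were 37.6 and 30.3 CPM, and 40.7 and 37.9 CPM. Summed over the members, the level was 813 and 703 CPM in XR PF, 70.0 and 318 CPM in LB PF, and 50.2 and 64.8 CPM at stage I day 8, the lowest group. A83-01 replicate 2 was above all 24 other libraries for 5 members. The exception was HIC_ASM_15.108, for which 6 libraries stood higher.

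HIC_ASM_2.519 was at 401 and 288 CPM in XR PF (344 ± 79.7 CPM, SD, n = 2), 30.9 and 222 CPM in LB PF, and 16.6 and 26.2 CPM at stage I day 8. It stood at 107 and 253 CPM at stage I day 24 and at 89.2 and 62.2 CPM at stage II day 8. All libraries of established cells were above these stage II values, and stage I day 8 held the lowest libraries outside day 16. In LB GPiPSC replicates 1, 2 and 3 it was at 196, 451 and 159 CPM, and in XR GPiPSC at 192 and 234 CPM. The BACL LB GPiPSC libraries had 165 and 166 CPM, BACL control 105 and 107 CPM, and BACL-CHIR99021 172 and 183 CPM.

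HIC_ASM_11.478 was at 149 and 155 CPM in XR PF (152 ± 4.36 CPM, SD, n = 2), 3.18 and 42.9 CPM in LB PF and 1.95 and 1.87 CPM at stage I day 8. At stage I day 24 it stood at 83.9 and 110 CPM and at stage II day 8 at 35.5 and 25.3 CPM. Stage I day 8 was thus near the day 16 controls, at 1.27 and 1.37 CPM, and stage I day 24 was the second highest group outside day 16. The GPiPSC libraries were spread widely, with 36.4, 93.1 and 9.09 CPM in LB GPiPSC replicates 1, 2 and 3 and 29.7 and 36.1 CPM in XR GPiPSC. It stood at 11.9 and 12.2 CPM in BACL LB GPiPSC, 9.38 and 8.93 CPM in BACL control and 33.7 and 44.8 CPM in BACL-CHIR99021.

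HIC_ASM_2.1079 was at 153 and 161 CPM in XR PF (157 ± 5.71 CPM, SD, n = 2), 13.9 and 43.0 CPM in LB PF, and 18.3 and 21.5 CPM at stage I day 8. It stood at 38.2 and 56.4 CPM at stage I day 24 and 20.9 and 13.7 CPM at stage II day 8. Its LB PF libraries bracketed stage I day 8, whereas both XR PF libraries were far above. The established cells and BACL control were low and close together, with 14.5, 14.3 and 9.77 CPM in LB GPiPSC, 12.7 and 13.5 CPM in XR GPiPSC, 13.4 and 12.5 CPM in BACL LB GPiPSC and 9.16 and 8.79 CPM in BACL control. BACL-CHIR99021 stood apart from these at 33.7 and 35.6 CPM.

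Its neighbour by number, HIC_ASM_2.1078, was at 56.2 and 43.8 CPM in XR PF (49.98 ± 8.76 CPM, SD, n = 2), 11.1 and 6.61 CPM in LB PF, 3.66 and 5.19 CPM at stage I day 8, 5.87 and 16.9 CPM at stage I day 24 and 4.37 and 2.66 CPM at stage II day 8. Here the second highest group outside day 16 was BACL-CHIR99021, at 16.7 and 15.8 CPM. The established cells and BACL control lay within a narrow range, with 7.41, 6.54 and 5.78 CPM in LB GPiPSC, 5.78 and 5.34 CPM in XR GPiPSC, 7.34 and 7.11 CPM in BACL LB GPiPSC and 4.80 and 6.22 CPM in BACL control.

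HIC_ASM_16.1178 had 3 counts or fewer in 9 of the 25 libraries, and 3 counts correspond to 0.201 to 0.348 CPM at these depths. It was at 9.00 and 8.33 CPM in XR PF (8.66 ± 0.475 CPM, SD, n = 2), 3.11 and 3.38 CPM at stage II day 8, 2.41 and 2.14 CPM in XR GPiPSC, 1.79 and 1.59 CPM in BACL-CHIR99021, and 0.827 and 1.20 CPM at stage I day 24. In LB GPiPSC it was at 3.79 CPM in replicate 2 (47 counts) and at 0.345 and 0.255 CPM in replicates 1 and 3 (4 and 3 counts). Both LB PF, both BACL LB GPiPSC and both BACL control libraries held 1 to 3 counts each, and stage I day 8 held 6 and 1. XR PF was thus above every other library outside day 16, and the XR PF and LB PF libraries did not overlap.

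HIC_ASM_15.108 differed from the others in its spread over groups, since A83-01 replicate 2, at 29.2 CPM, was not its highest library. It was at 45.5 and 47.3 CPM in XR PF (46.4 ± 1.27 CPM, SD, n = 2), 33.2 and 36.5 CPM in XR GPiPSC, 30.9 and 30.5 CPM at stage II day 8, 19.9, 15.7 and 20.7 CPM in LB GPiPSC and 18.0 and 16.7 CPM at stage I day 24. The 6 libraries of the first 3 of these groups were all above A83-01 replicate 2. Lower values were found at stage I day 8 (9.19 and 10.02 CPM), in BACL-CHIR99021 (9.92 and 11.6 CPM), BACL LB GPiPSC (9.04 and 9.87 CPM), LB PF (10.6 and 3.48 CPM) and BACL control (5.74 and 6.81 CPM), and the 3 other day 16 libraries, at 2.22 to 2.96 CPM, were the lowest of all.

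**Figure D2:**
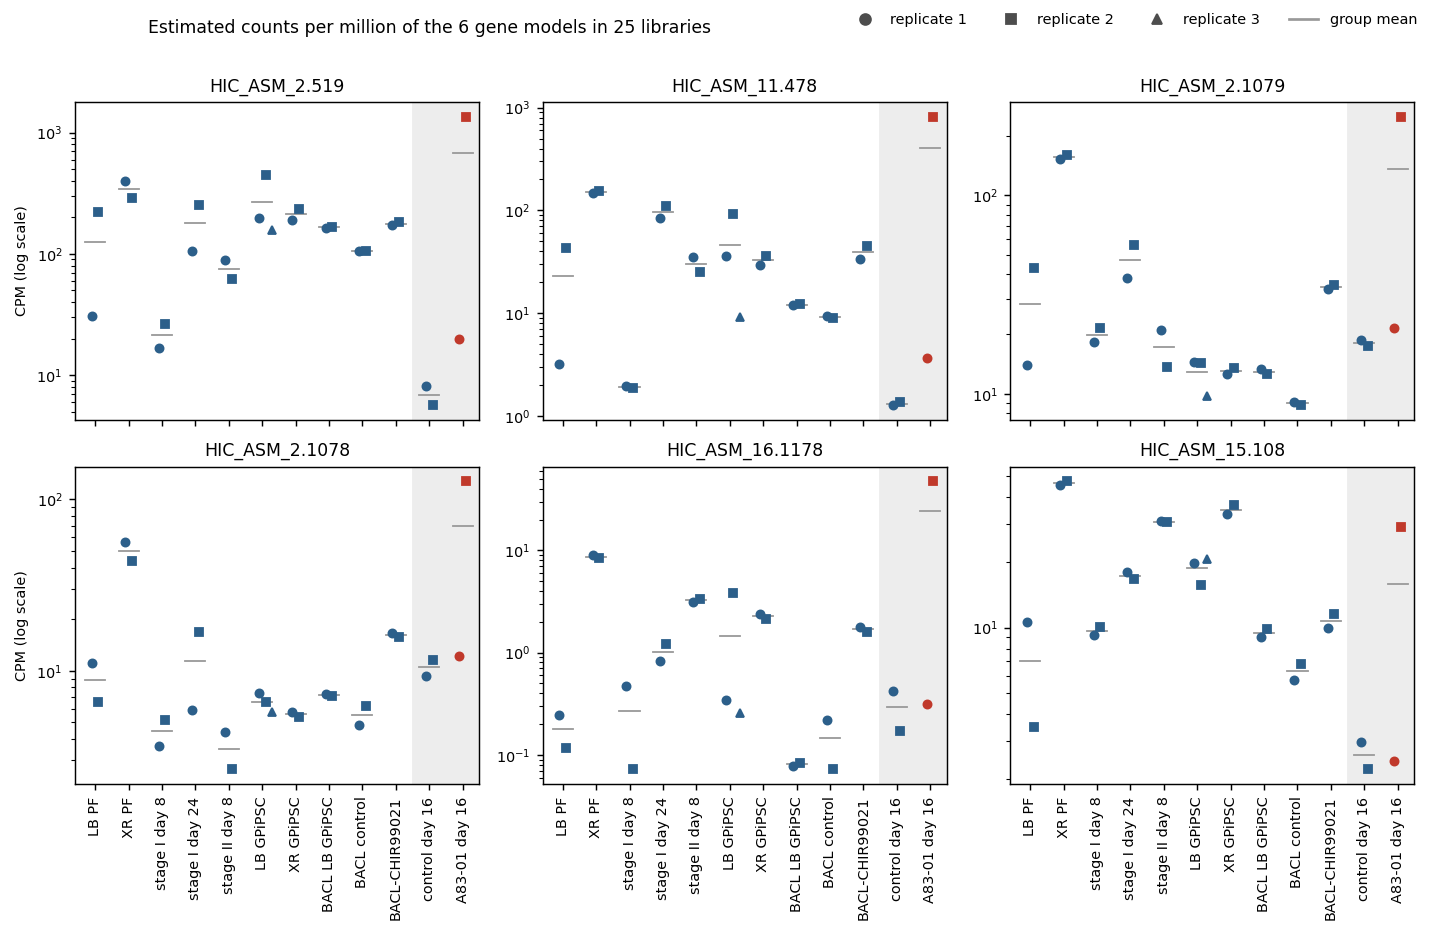
Each panel shows 1 member, with CPM on a log axis for each library (circles, squares and triangles are replicates 1, 2 and 3), grey bars for group means and shading for the day 16 groups that chose the members. A83-01 libraries are red. XR PF has the highest mean outside day 16 in all 6 panels, and in each panel the 2 A83-01 libraries are farther apart on the log axis than any other replicate pair.

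Gaps between replicates occurred in other groups for some members. In LB PF, HIC_ASM_11.478 was 13.5 times as high in replicate 2 as in replicate 1 and HIC_ASM_2.519 was 7.19 times as high. On log2(CPM + 1), 0.292% and 0.800% of the 9245 models at 10 CPM or more in A83-01 replicate 2 had a gap as large in that group, in either direction. HIC_ASM_2.1079 was also higher in LB PF replicate 2, whereas HIC_ASM_15.108, HIC_ASM_2.1078 and HIC_ASM_16.1178 were higher in replicate 1. In LB GPiPSC, HIC_ASM_2.519 and HIC_ASM_11.478 were 2.30 and 2.56 times as high in replicate 2 as in replicate 1, gaps matched by 2.10% and 1.42% of the same models, and HIC_ASM_16.1178 also stood higher in replicate 2, where it had 47 counts against 4. A83-01, where the rule required it, was the only group in which all 6 were higher in replicate 2. The median log2 ratio there, set by the same rule, was 4.34, against -0.09 over the 9245 models. The medians over the members were 0.70 in LB PF, 0.59 in LB GPiPSC and between -0.49 and 0.47 in each of the other groups.

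The number of models with gaps of this size differed between groups. Counting models at 10 CPM or more in the higher of replicates 1 and 2 and 8-fold apart, A83-01 had 7 higher in replicate 2 and 2 higher in replicate 1. LB PF had 21 and 106, XR PF 0 and 130, stage I day 24 had 38 and 0, and LB GPiPSC 11 and 7. XR GPiPSC had 0 and 1, and the other 6 groups, the control day 16 pair among them, had none. HIC_ASM_11.478 in LB PF was the 1 case of a member that was 8-fold apart by this count outside A83-01.

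**Figure D3:**
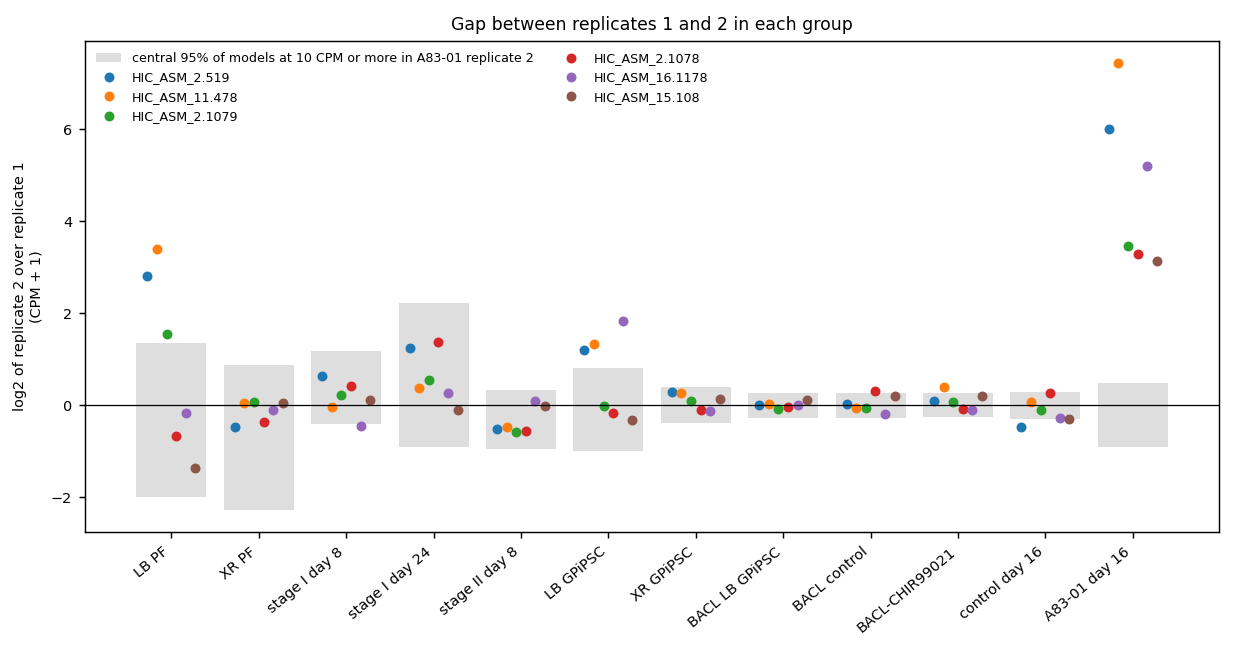
Points are the log2 ratio of replicate 2 to replicate 1 (CPM + 1) of each member in each group, and grey boxes span the central 95% of the 9245 models at 10 CPM or more in A83-01 replicate 2. In A83-01, where the rule required a gap, the members lie at 3.14 to 7.44. In LB PF and LB GPiPSC 3 members each lie outside the boxes, as does 1 each in stage I day 8, control day 16, BACL control and BACL-CHIR99021.

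Comparisons between groups were tested in the 21 libraries outside day 16, since the rule's gap between the A83-01 libraries would enlarge the members' estimated spread. Tests were edgeR's quasi-likelihood test with Benjamini-Hochberg adjustment over 17037 models, with calls made at an adjusted p below 0.05. All 6 members passed the filter on low counts in these libraries. Fold changes are on the log2 scale with their standard error (SE), after TMM scaling, and so can differ from ratios of the CPM values above. Where a library compared had 3 counts or fewer of HIC_ASM_16.1178, its fitted fold change depends on the prior count and is no measure of size, and only its adjusted p is given with the comparisons. With all 25 libraries in the fit the members' spread includes the gap that chose them, and fewer members were called in 8 of the 9 comparisons (the BACL LB GPiPSC comparison had none in either fit).

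XR GPiPSC were compared with XR PF to see how the members behaved between the starting and the reprogrammed cells of that label. Of the 6 members 5 fell, where 28.1% of all models tested were called lower, and none rose, where 26.3% were called higher. The consecutive models fell most, HIC_ASM_2.1079 with -4.24 ± 0.42 (SE; adjusted p = 3.85e-07, edgeR) and HIC_ASM_2.1078 with -3.81 ± 0.36 (adjusted p = 2.8e-07). HIC_ASM_11.478 had -2.87 ± 0.87 (adjusted p = 0.0107), HIC_ASM_16.1178 -2.58 ± 0.79 (adjusted p = 0.011) and HIC_ASM_15.108 -1.08 ± 0.35 (adjusted p = 0.0169), and HIC_ASM_2.519, the 1 not called, -1.33 ± 0.61 (adjusted p = 0.0758). Both XR GPiPSC libraries were below both XR PF libraries in all 6, but the share of all models so placed was not counted. The median log2 fold change of the members was -2.72, against 0.00 over all models. Without XR GPiPSC replicate 1, or without replicate 2, the 2 consecutive models remained called and the other 3 did not, and with only the libraries compared in the fit HIC_ASM_2.519 was called too (adjusted p = 0.0132). The call of HIC_ASM_15.108 was also lost without XR PF replicate 2. On log2(TPM + 1), tested with limma-trend, HIC_ASM_15.108 had -0.59 (adjusted p = 0.11), and the split of all models moved from 4478 higher and 4787 lower to 5685 and 3406.

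The same comparison in LB gave a mixed picture. In LB GPiPSC against LB PF, 1 member rose, where 27.9% of all models were called higher, and 2 fell, where 28.0% were called lower. The member that rose was HIC_ASM_15.108, by 0.97 ± 0.34 (SE; adjusted p = 0.0234, edgeR), and those that fell were HIC_ASM_2.1079, with -1.59 ± 0.34 (adjusted p = 0.000776), and HIC_ASM_2.1078, with -0.86 ± 0.31 (adjusted p = 0.0243). HIC_ASM_11.478 and HIC_ASM_2.519 had 0.57 ± 0.77 and 0.64 ± 0.56, with the LB PF libraries far apart, and the adjusted p of HIC_ASM_16.1178 was 0.0613. The median over the members was 0.61, against 0.01 over all models. The values depended on which LB PF library was used. Without LB PF replicate 2, HIC_ASM_2.519 and HIC_ASM_11.478 rose, by 2.72 (adjusted p = 0.000699) and 3.46 (adjusted p = 0.00643), and HIC_ASM_15.108 and HIC_ASM_2.1079 were not called (adjusted p = 0.251 and 0.107). Without LB PF replicate 1, HIC_ASM_2.519 and HIC_ASM_11.478 had -0.18 and -0.34 and HIC_ASM_2.1078 was not called (adjusted p = 0.292), nor was it without LB GPiPSC replicate 3 (adjusted p = 0.115), while HIC_ASM_11.478 had -0.48 without LB GPiPSC replicate 2. HIC_ASM_16.1178 was called higher without LB GPiPSC replicate 1 or without replicate 3 (adjusted p = 0.0216 and 0.0127), and by DESeq2 (0.0378). The rise of HIC_ASM_15.108 was not called with only the libraries compared in the fit (adjusted p = 0.142), where HIC_ASM_2.1079 alone was called (0.0358). On log2(TPM + 1) with limma-trend HIC_ASM_2.1078 was not called (adjusted p = 0.596), and the split of all models moved from 4755 higher and 4775 lower to 5766 and 3511.

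Whether the change from PF to GPiPSC differed between LB and XR was tested directly. For 4 of the 6 members the LB change lay above the XR change, where 4.17% of all models were called in that direction, and none was called the other way, where 2.37% were. The difference was 2.95 ± 0.47 (SE) for HIC_ASM_2.1078 (adjusted p = 0.00182, edgeR), 2.65 ± 0.52 for HIC_ASM_2.1079 (adjusted p = 0.00691) and 2.05 ± 0.49 for HIC_ASM_15.108 (adjusted p = 0.0219), and HIC_ASM_16.1178 was also called (adjusted p = 0.0314). HIC_ASM_11.478 and HIC_ASM_2.519 had 3.44 ± 1.16 (adjusted p = 0.0856) and 1.98 ± 0.83 (adjusted p = 0.162). This test shares the XR libraries with the XR comparison and the LB libraries with the LB comparison. The median over the members was 2.80, against 0.02 over all models. With only the libraries compared in the fit, or without XR GPiPSC replicate 1, HIC_ASM_2.1078 alone was called, and without XR GPiPSC replicate 2 or XR PF replicate 2 the consecutive models were. Without LB PF replicate 2, or without LB GPiPSC replicate 2 (adjusted p = 0.0885, edgeR), HIC_ASM_16.1178 was not called. The first of these fits left 1 LB PF library, and HIC_ASM_11.478 and HIC_ASM_2.519 were called in it. HIC_ASM_11.478 was also called by DESeq2 (adjusted p = 0.0214) and by edgeR with a block for replicate number (adjusted p = 0.0234).

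Stage I day 8, the earliest reprogramming sample, was set against PF, taken as the average of the LB and XR groups. Of the 6 members 4 fell, where 24.6% of all models were called lower, and none rose, where 24.7% were called higher. The values were -4.53 ± 0.95 (SE) for HIC_ASM_11.478 (adjusted p = 0.00132, edgeR), -2.88 ± 0.61 for HIC_ASM_2.519 (adjusted p = 0.0014), -1.83 ± 0.32 for HIC_ASM_2.1078 (adjusted p = 0.000296) and -1.34 ± 0.34 for HIC_ASM_2.1079 (adjusted p = 0.00452). HIC_ASM_15.108 had -0.50 ± 0.32 (adjusted p = 0.207) and HIC_ASM_16.1178 an adjusted p of 0.175. The mean of LB and XR covers unlike values: for the first 3 members named, both day 8 libraries were below all 4 PF libraries, whereas for HIC_ASM_2.1079 they lay between the LB PF libraries. How many of all models lay below all 4 PF libraries at day 8 was not counted. HIC_ASM_2.1079 lost its call with only the libraries compared in the fit (adjusted p = 0.0589, edgeR), and it was not called without stage I day 8 replicate 1. HIC_ASM_15.108 was called lower without LB PF replicate 2. The median over the members was -1.83, against 0.00 over all models. On log2(TPM + 1) with limma-trend all 6 members were called lower, and the split of all models moved from 4213 higher and 4183 lower to 2400 and 5904.

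From day 8 to day 24 of stage I, 2 members rose, where 17.2% of all models were called higher, and none fell, where 12.5% were called lower. HIC_ASM_11.478 rose by 5.25 ± 1.02 (SE; adjusted p = 0.000947, edgeR) and HIC_ASM_2.519 by 2.60 ± 0.64 (adjusted p = 0.0057), the 2 members with the largest fall to day 8, and the comparisons share the day 8 libraries. All 6 members had both day 24 libraries above both day 8 libraries in CPM, and the share of all models that did so was not counted. The median CPM over the 9245 models at 10 CPM or more in A83-01 replicate 2 moved upward too. It was 24.8 and 27.8 in the day 8 libraries and 27.5 and 39.7 in the day 24 libraries. The values of HIC_ASM_2.1078, HIC_ASM_2.1079 and HIC_ASM_15.108 were 0.87 ± 0.34, 0.83 ± 0.37 and 0.49 ± 0.36, with adjusted p-values of 0.0643, 0.103 and 0.333, and HIC_ASM_16.1178 had an adjusted p of 0.321. Over all models the median was 0.15, and over the members it was 1.18. HIC_ASM_2.519 lost its call without stage I day 8 replicate 1 (adjusted p = 0.0663), and HIC_ASM_2.1078 was called without stage I day 24 replicate 1 (adjusted p = 0.0107).

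The members did not move together into stage II. At stage II day 8 against stage I day 24, HIC_ASM_15.108 rose by 1.08 ± 0.36 (SE; adjusted p = 0.033, edgeR), where 11.3% of all models were called higher. HIC_ASM_2.1078 and HIC_ASM_2.1079 fell, with -1.32 ± 0.35 (adjusted p = 0.0115) and -1.14 ± 0.37 (adjusted p = 0.0315), where 17.0% were called lower. HIC_ASM_16.1178 had 1.99 ± 0.83 (adjusted p = 0.0835), HIC_ASM_11.478 -1.38 ± 0.83 (adjusted p = 0.221) and HIC_ASM_2.519 -0.88 ± 0.61 (adjusted p = 0.288). The median over the members was -1.01, against -0.14 over all models. None of the 3 calls was made without stage I day 24 replicate 2 or without stage II day 8 replicate 2. Without stage II day 8 replicate 1 only HIC_ASM_2.1078 was called, and without stage I day 24 replicate 1 HIC_ASM_2.1079 was not (adjusted p = 0.0512). On log2(TPM + 1) with limma-trend only HIC_ASM_2.1079 was called (adjusted p = 0.0152). With only the libraries compared in the fit, HIC_ASM_15.108 and HIC_ASM_2.1078 were not called (adjusted p = 0.0915 and 0.119), whereas HIC_ASM_11.478 was called lower (0.0252) and HIC_ASM_16.1178 higher (0.0456).

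Between stage II day 8 and established GPiPSC (mean of LB and XR), 3 members fell, where 35.9% of all models were called lower, and none rose, where 30.6% were called higher. HIC_ASM_2.1079 had -1.27 ± 0.30 (SE; adjusted p = 0.0016, edgeR), HIC_ASM_15.108 -1.13 ± 0.28 (adjusted p = 0.00242), and HIC_ASM_16.1178 was called lower (adjusted p = 0.0271). HIC_ASM_2.519, HIC_ASM_11.478 and HIC_ASM_2.1078 had 0.81 ± 0.53, -0.49 ± 0.68 and -0.06 ± 0.29 and were not called. The median over the members was -0.81. TMM factors were 0.664 and 0.748 at stage II day 8 and 1.24 to 1.33 in the GPiPSC, and with RLE size factors the 3 calls were also made. On log2(TPM + 1), limma-trend moved the median over all models from -0.08 to 0.57 and the split from 5221 higher and 6110 lower to 8463 and 2545. None of the 3 was called there (-0.18 for HIC_ASM_2.1079, -0.07 for HIC_ASM_15.108, and an adjusted p of 0.18 for HIC_ASM_16.1178). HIC_ASM_2.519 and HIC_ASM_2.1078 were called higher by limma-trend, by 1.73 (adjusted p = 0.0158) and 1.12 (adjusted p = 0.0331). HIC_ASM_16.1178 also lost its call without either stage II day 8 library or either XR GPiPSC library (adjusted p-values of 0.066 to 0.137), with DESeq2 (0.0632) and with only the libraries compared in the fit (0.101).

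Among the established cells, the members were compared between BACL LB GPiPSC and LB GPiPSC. By edgeR none of the 6 was called, where 1.41% of all models were called higher and 6.75% lower. HIC_ASM_11.478 had -1.87 ± 0.81 (SE; adjusted p = 0.191), HIC_ASM_15.108 -0.91 ± 0.34 (adjusted p = 0.12) and HIC_ASM_2.519 -0.62 ± 0.56 (adjusted p = 0.6), while HIC_ASM_2.1078 and HIC_ASM_2.1079 had 0.22 ± 0.31 and 0.09 ± 0.34. The adjusted p of HIC_ASM_16.1178 was 0.0519, and 3 members had an unadjusted p under 0.05. The median over the members was -0.76, against -0.06 over all models. DESeq2 called HIC_ASM_16.1178 and HIC_ASM_15.108 lower (adjusted p = 0.0222 and 0.0461). With only the libraries compared in the edgeR fit HIC_ASM_15.108 was called lower (adjusted p = 0.0389). HIC_ASM_16.1178 was called lower by edgeR without LB GPiPSC replicate 1 or without replicate 3 (adjusted p = 0.0201 and 0.0155), and not without replicate 2, which held 47 counts of it (adjusted p = 0.361).

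BACL-CHIR99021 was compared with BACL control, the pair of groups that the labels set apart by CHIR99021. The titles do not say whether the compound was added or withdrawn, so the direction below is that of the named groups only. Of the 6 members 2 rose, where 10.5% of all models were called higher, and none fell, where 3.57% were called lower. These were the consecutive models, HIC_ASM_2.1079 by 1.81 ± 0.38 (SE; adjusted p = 0.00383, edgeR) and HIC_ASM_2.1078 by 1.42 ± 0.34 (adjusted p = 0.00863). HIC_ASM_11.478 had 1.97 ± 0.86 (adjusted p = 0.153), HIC_ASM_15.108 0.64 ± 0.37 (adjusted p = 0.293), HIC_ASM_2.519 0.61 ± 0.60 (adjusted p = 0.583) and HIC_ASM_16.1178 an adjusted p of 0.0556. In all 6 both BACL-CHIR99021 libraries stood above both BACL control libraries, but how many of all models separated in this way was not counted. The median CPM over the 9245 models at 10 CPM or more in A83-01 replicate 2 was higher there too. It was 44.0 and 44.1 in BACL-CHIR99021 and 39.5 and 39.7 in BACL control. The median over the members was 1.62, against 0.00 over all models. With only the 4 libraries compared in the fit all 6 members were called higher, but so were 36.8% of all models tested. DESeq2 also called HIC_ASM_16.1178 higher (adjusted p = 0.0266).

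The consecutive models lost calls in some fits with 1 of these 4 libraries left out. Such a fit leaves 1 library in a group, and in each of these fits fewer of all models were called as well. HIC_ASM_2.1078 was not called without BACL control replicate 1 or 2, or without BACL-CHIR99021 replicate 1, and HIC_ASM_2.1079 was not called without BACL control replicate 2. Their log2 fold changes stayed between 1.25 and 1.62 for HIC_ASM_2.1078 in these 3 fits, and that of HIC_ASM_2.1079 was 1.78.

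**Figure D4:**
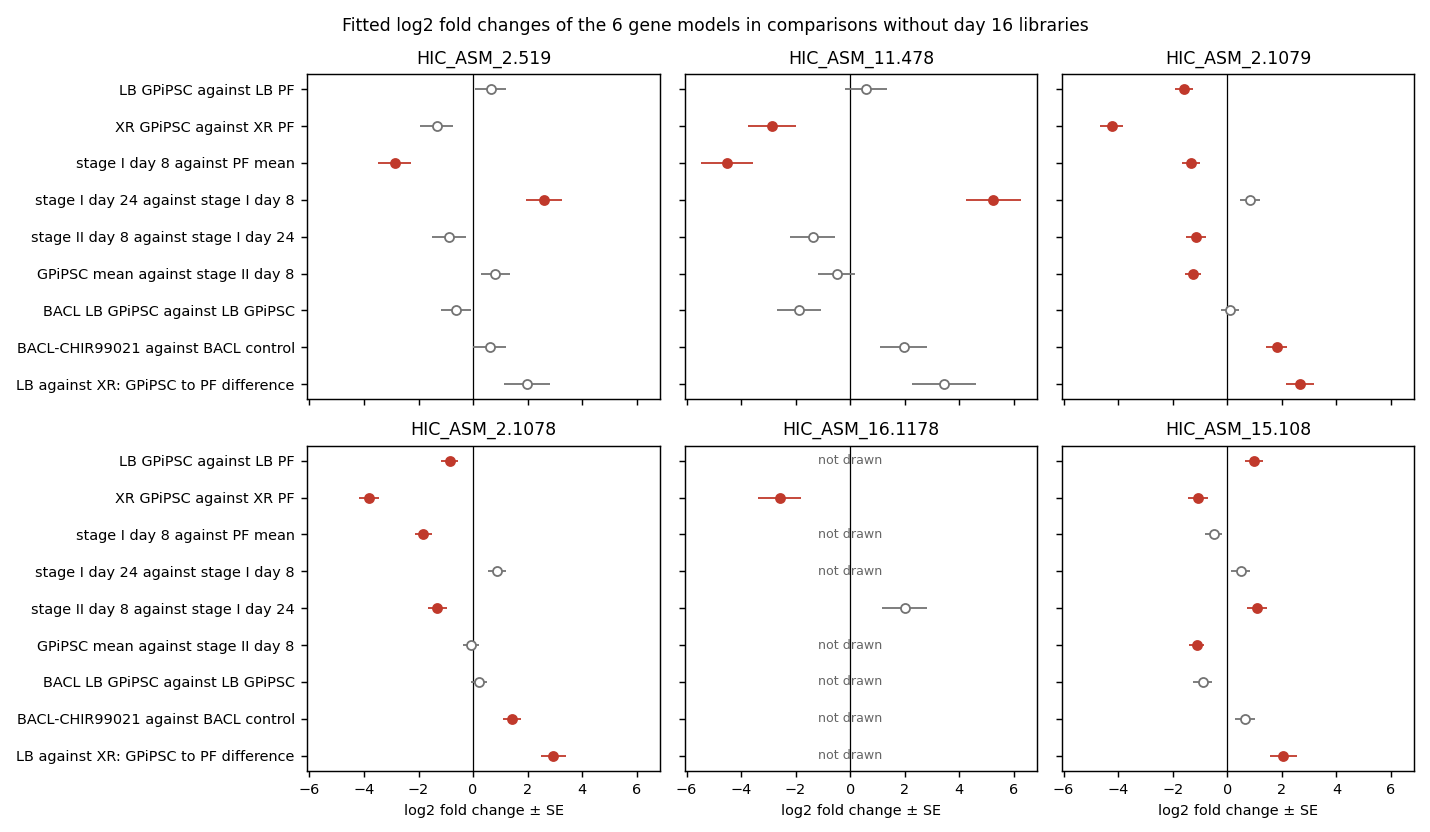
Points are fitted log2 fold changes with their SE for each member (panels) in each comparison outside day 16 (rows), filled red where the adjusted p was under 0.05 and open grey otherwise. "Not drawn" marks comparisons in which a library had 3 counts or fewer. Values in XR GPiPSC against XR PF lie below 0 in all 6 panels (-4.24 to -1.08), and those in stage I day 24 against stage I day 8 and in BACL-CHIR99021 against BACL control lie above 0 wherever drawn.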

How the data were processed

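RNA-seq of 25 giant panda libraries was analysed from the deposited tables. Per the submitters' processing notes kallisto was used; for its version, transcript set and build, nothing was given in the sources used here. Per the file headers, each table holds the authors' estimated counts and TPM for the same 22924 gene models. CPM was computed from the deposited estimated counts over the column sum, and replicate gaps used log2(CPM + 1). Lengths are called coding lengths because 91.6% divide by 3.

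Estimated counts were rounded to whole numbers and tested with edgeR 4.0.16 in R 4.3.3 (quasi-likelihood, TMM, filterByExpr, Benjamini-Hochberg adjustment, threshold 0.05) in 21 libraries of 10 groups outside day 16, with 11 residual degrees of freedom. The code was tested on simulated data. DESeq2 1.42.0, size factors by RLE, an unfiltered table, other library sets, a replicate block, limma 3.58.1 on log2(TPM + 1) or log2(TPM + 0.1) of the deposited TPM, and the omission of each library served as alternatives. Library totals of 8627983 to 14890260 put 3 counts at 0.201 to 0.348 CPM. Groups were taken from the sample titles.

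The members and lists were chosen with earlier results of these data known. Genes were to be named by size of change among called members and by level in A83-01 replicate 2; since only 6 members exist, all are described. Lists of cell type marker genes could be matched to no model, because the tables hold no gene symbols.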

Additional observations from a re-analysis of the deposited data

Results flagged for a closer look

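The change from PF to GPiPSC differed between LB and XR for 4 members by the test of the difference itself (edgeR's quasi-likelihood test, interaction term). LB minus XR, the difference of the log2 fold changes was 2.95 for HIC_ASM_2.1078, 2.65 for HIC_ASM_2.1079 and 2.05 for HIC_ASM_15.108. HIC_ASM_2.1078 and HIC_ASM_2.1079 fell in both, and more in XR, whereas HIC_ASM_15.108 rose in LB and fell in XR. For HIC_ASM_16.1178 the fitted difference was 5.07, but its LB PF libraries held 3 and 1 counts, so the value depends on the prior count and is no measure of size. No group has 4 or more libraries, so single libraries were not tested for standing apart.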

How the results depend on the processing

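The rule gave 10 models with a fold limit of 4 and 3 with a limit of 16. A minimum of 5 or 20 CPM or TMM-scaled CPM gave 6, and TPM gave 5. On the TPM scale HIC_ASM_15.108 was below the minimum of 10 in A83-01 replicate 2, at 8.95 TPM. With all 25 libraries in the fit, the members called numbered 1 in LB GPiPSC against LB PF, 2 in XR GPiPSC against XR PF, 3 in stage I day 8 against PF, 1 from stage I day 8 to day 24, 0 in stage II day 8 against stage I day 24, 1 in GPiPSC against stage II day 8, 0 in BACL-CHIR99021 against BACL control and 1 in the LB and XR difference. With only the libraries compared, they numbered 1 in LB GPiPSC against LB PF, 6 in XR GPiPSC against XR PF, 3 in stage I day 8 against PF, 2 in GPiPSC against stage II day 8, 6 in BACL-CHIR99021 against BACL control, 1 in BACL LB GPiPSC against LB GPiPSC and 1 in the LB and XR difference. On log2(TPM + 1) and log2(TPM + 0.1) 1 member was called in stage II day 8 against stage I day 24. In BACL LB GPiPSC against LB GPiPSC, DESeq2 called 2 members and the fit without a filter 1. The calls over all models moved too. With all 25 libraries more models were called higher and more lower in every comparison. With only the libraries compared, 36.8% of all models tested were called higher in BACL-CHIR99021 against BACL control, against 10.5% in the report. In the LB and XR difference 40 of 15996 models were called higher and 43 lower, against 711 and 404 of 17037. Calls over all models also moved with 1 library left out. The causes of the changed calls were not tested.

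Leaving out 1 library gave 2 to 4 members called in LB GPiPSC against LB PF, 2 to 5 in XR GPiPSC against XR PF, 3 to 5 in stage I day 8 against PF, 1 to 3 from stage I day 8 to day 24, 0 to 2 in stage II day 8 against stage I day 24, 2 to 3 in GPiPSC against stage II day 8, 0 to 1 in BACL LB GPiPSC against LB GPiPSC, 0 to 2 in BACL-CHIR99021 against BACL control and 1 to 5 in the LB and XR difference.

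The values that changed sign belong to members not called in the report for that comparison. In GPiPSC against stage II day 8, HIC_ASM_2.1078 had 0.0253 with RLE size factors, 0.0238 with DESeq2, 0.0109 without a filter, 0.0611 with only the libraries compared, 1.12 and 1.18 on log2(TPM + 1) and log2(TPM + 0.1), and -0.31 to 0.24 with 1 library left out (without stage II day 8 replicates 2 and 1), and HIC_ASM_11.478 had 0.29 on both TPM scales. In BACL LB GPiPSC against LB GPiPSC, HIC_ASM_2.1079 had -0.0683 with the replicate block, -0.0573 and -0.0596 on the TPM scales, and -0.0753 to 0.19 with 1 library left out (without LB GPiPSC replicates 3 and 2). In LB GPiPSC against LB PF, leaving out 1 library gave -0.48 to 3.46 for HIC_ASM_11.478 (without LB GPiPSC replicate 2 and LB PF replicate 2, with -0.34 without LB PF replicate 1) and -0.18 to 2.72 for HIC_ASM_2.519 (without LB PF replicates 1 and 2).

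The labels give replicates by number only and do not say whether the numbers pair the samples. Over 45 pairs of groups, the deviations of same-numbered libraries correlated at -0.716 to 0.563 (median -0.015), with 4 above 0.1. These values cannot show whether samples of some groups were paired. With the replicate block the members called numbered 2 in LB GPiPSC against LB PF (HIC_ASM_16.1178 higher, adjusted p = 0.0243 by edgeR, and HIC_ASM_2.1079 lower, whereas HIC_ASM_15.108 and HIC_ASM_2.1078 had 0.0611 and 0.0874), 3 in BACL-CHIR99021 against BACL control, 5 in the LB and XR difference, 1 in BACL LB GPiPSC against LB GPiPSC, and as many as without it elsewhere. Of the 17037 models tested, the fit with the block called 4272 higher and 4324 lower in the first of these comparisons. It called 1769 and 560 in the second, 699 and 442 in the third, and 133 and 841 in the fourth.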
